A study of Mus musculus with 57 samples.

Results

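The genes described here are 10 regulators and targets of the Wnt pathway, chosen by name from the 55450 genes of the count table. They comprise targets and feedback regulators inside the cell (Axin2, Nkd1, Sp5, Lef1 and Tcf7), secreted inhibitors (Dkk1, Sfrp1 and Sfrp2), a ligand (Wnt5a) and a secreted agonist (Rspo3). All 10 were found under 1 Ensembl identifier each, and all 10 were measured in every one of 57 RNA-seq libraries from 19 conditions. The cells were a mouse embryonic stem cell line, Sox1-EGFP/FoxA2mCherry, in which EGFP replaces 1 allele of the neural gene Sox1 and mCherry is fused to FOXA2, a transcription factor of the endoderm. The line is a single clone, and every library, controls included, carried both reporters. Cells were kept in serum with LIF, then differentiated with 1 uM retinoic acid (RA) in N2B27 medium and sorted by the reporters at D0 (Sox1-FOXA2- only) and at D2, D4 and D6 (Sox1-FOXA2-, Sox1+FOXA2-, Sox1-FOXA2+ and Sox1+FOXA2+), with 3 replicates of each. In a further arm, called progeny, cells sorted at D2 as Sox1+FOXA2-, as Sox1-FOXA2+ or as Sox1+FOXA2+ were replated with RA in serum medium lacking LIF and harvested at D4 or D6 without a new sort, again with 3 replicates each. Replating, the change of medium and descent from a D2 gate cannot be told apart in that arm.

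Wnt proteins bind Frizzled and LRP receptors, which stabilises beta-catenin and lets it act with TCF/LEF factors in the nucleus. Several targets of this signal are themselves regulators: Axin2 promotes beta-catenin breakdown, Nkd1 binds Dishevelled, DKK1 blocks the LRP coreceptors and the SFRP proteins bind Wnt ligands outside the cell. In the early mouse embryo the pathway is known for its part in forming the primitive streak and for the inhibitors that anterior tissues, endoderm included, secrete against it.

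Promoters of 4 genes on which the results turn are shown, because 2 of them, Sp5 and Dkk1, hold the core of a TCF/LEF site close to the start. Each run is the 250 bases upstream of the RefSeq transcript start on assembly GRCm38.p6, read 5′ to 3′ on the strand of the gene. Capitals mark a match to CTTTGAA or CTTTGAT, searched on both strands. These letters occur in 7.48% of the 32851 windows of this length in the RefSeq table.
Sp5: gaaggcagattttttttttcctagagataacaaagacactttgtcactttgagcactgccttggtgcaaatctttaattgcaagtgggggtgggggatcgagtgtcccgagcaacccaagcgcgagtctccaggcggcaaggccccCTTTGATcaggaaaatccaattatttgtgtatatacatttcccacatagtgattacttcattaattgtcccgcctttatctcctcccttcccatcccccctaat
Axin2: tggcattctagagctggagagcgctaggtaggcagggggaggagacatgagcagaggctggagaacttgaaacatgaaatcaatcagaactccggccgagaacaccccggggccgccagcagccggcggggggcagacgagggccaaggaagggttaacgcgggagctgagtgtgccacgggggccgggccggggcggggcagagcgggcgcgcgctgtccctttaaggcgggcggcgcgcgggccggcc
Dkk1: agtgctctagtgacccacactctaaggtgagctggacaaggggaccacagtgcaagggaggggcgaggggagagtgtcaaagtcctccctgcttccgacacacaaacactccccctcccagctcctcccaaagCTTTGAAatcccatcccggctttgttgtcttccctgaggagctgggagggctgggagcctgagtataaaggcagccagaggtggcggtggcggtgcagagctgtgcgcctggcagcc
Sfrp2: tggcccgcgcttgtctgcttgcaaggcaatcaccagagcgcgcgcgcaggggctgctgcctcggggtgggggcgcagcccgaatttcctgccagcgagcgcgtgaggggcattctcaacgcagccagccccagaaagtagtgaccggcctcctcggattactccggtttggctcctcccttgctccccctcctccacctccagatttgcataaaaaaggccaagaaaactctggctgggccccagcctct
The Sp5 window is chr2:70474673-70474922 on the plus strand, and its match starts 104 bases before the transcript. The Dkk1 window is chr19:30549497-30549746 on the minus strand, with a match 117 bases before the RefSeq start. In the GENCODE M21 annotation Dkk1 begins further upstream, at chr19:30549665, so the match lies inside that gene. Neither the Axin2 window, chr11:108920099-108920348 on the plus strand, nor the Sfrp2 window, chr3:83766071-83766320 on the plus strand, holds these letters. Windows were found in the table for 7 of the 10 genes, and 2 of these 7 genes held a match. The 7 genes had 11 windows in all, and the 7.48% above is a share of windows, not of genes. No window of Lef1, Tcf7 or Nkd1 did. A match is a description of the letters and not a bound site.

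The libraries held between 10170632 and 81845651 counts in genes, with a median of 36694379, and between 14458 and 27832 genes had a count above 0. Levels are given as CPM, each gene's share of a library's counts scaled to a common total, with library sizes adjusted by the trimmed mean of M values (TMM) over all libraries. The gates were checked against their own genes. Foxa2 lay at 45.5 to 83.3 CPM in sorted D6 Sox1-FOXA2+ libraries and at 0.491 to 3.26 CPM in Sox1+FOXA2- ones, but the Sox1+FOXA2+ libraries of D6 gave 0, 20.8 and 1.76 CPM, so replicate 1 of that gate held no Foxa2 count. Sox1 was listed at 0 in all 57 libraries and could not check the Sox1 gate, which rests on EGFP. Summed endoderm markers reached 20900 to 55200 CPM in sorted D6 Sox1-FOXA2+ libraries against 224 to 339 CPM in Sox1+FOXA2- ones. That list holds Foxa2, which the gate itself selects, and genes that the study named from these same libraries. The sum is therefore no independent check of the gates. In bulk libraries, fewer cells of a type and less RNA per cell cannot be told apart. The study calls its samples biological replicates and the labels number them, but neither says whether they came from separate cultures, so the p-values below measure the spread between these samples.

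Gene positions below are those of GENCODE M21 on GRCm38. None of the 10 genes shared exon bases with another gene on its own strand, but 16.1% of the exon bases of Sfrp2, 13.7% of Lef1, 13.1% of Rspo3, 4.6% of Wnt5a and 3.8% of Axin2 lie opposite an antisense gene, whose reads cannot be told apart without a stated strand setting. Per kilobase of exon, the mean level over the 19 conditions was 6.38 CPM for Sfrp2, 6.27 for Axin2, 5.48 for Sfrp1 and 4.01 for Lef1. It was 3.51 CPM per kilobase for Rspo3, 2.64 for Dkk1, 2.59 for Nkd1, 1.46 for Wnt5a, 0.746 for Sp5 and 0.625 for Tcf7. Axin2, a general reporter of the pathway, was detected in all 57 libraries, from 0.536 to 97.3 CPM. Sp5 and Dkk1 were each at 0 in 23 of 57 libraries. The spread between replicates was wide, with a median coefficient of variation within conditions of 0.485 for Axin2, 0.49 for Sfrp1, 1.14 for Sp5 and 1.18 for Dkk1. Tcf7 (ENSMUSG00000000782.15, chr11:52252371-52283014, minus strand), a TCF/LEF factor, stayed at or below 9.3 CPM and was called in no comparison by the edgeR quasi-likelihood test.

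**Figure D1:**
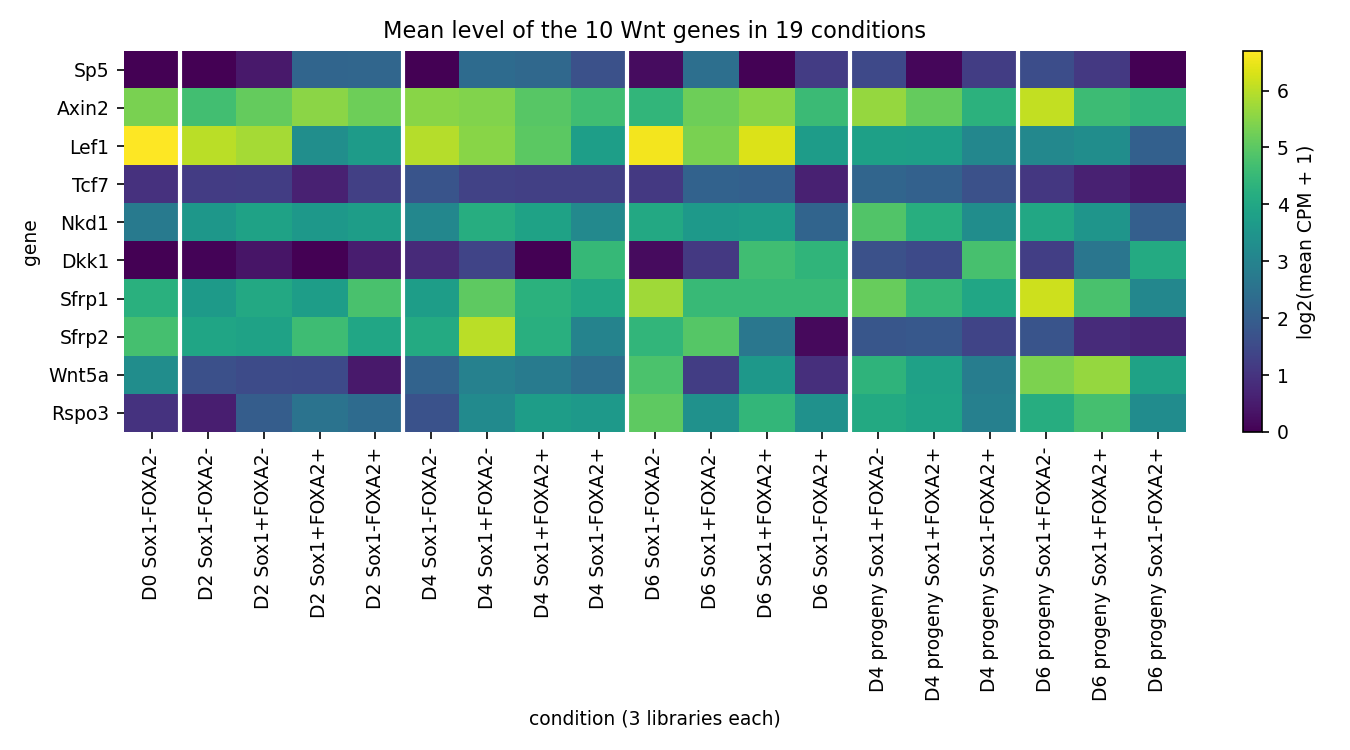
Heat map of the mean level of each of the 10 genes (rows) in the 19 conditions (columns), as log2(mean CPM + 1) of 3 libraries per condition. Dkk1 has means of 16.0 to 25.7 CPM in the Sox1-FOXA2+ columns from D4 on, and Sfrp2 is lowest in the sorted D6 Sox1-FOXA2+ column, where its mean is 0.126 CPM.

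Sox1-FOXA2+ cells, which express the endoderm reporter, were compared with Sox1+FOXA2- cells, which express the neural reporter, at each day. In sorted cells Sfrp2 was lower in Sox1-FOXA2+ at D6, and in D6 progeny Sfrp1, Axin2, Wnt5a and Sp5 were lower and Dkk1 was higher. The difference passed the edgeR quasi-likelihood test (Benjamini-Hochberg adjusted p under 0.05 over all genes tested) for 1 of 10 genes at D6 and for 5 of 10 in D6 progeny. At D6, 1.32% of all genes tested were called, and in D6 progeny 6.91% were. At D2 edgeR called 0 of the 9 genes tested (0.00491% of all genes), with 1 at an unadjusted p under 0.05 (5.06% of all genes) and 0 called by DESeq2. At D4 edgeR called 0 of 10 (0.266% of all genes), with 2 at an unadjusted p under 0.05 (5.45% of all genes) and 1, Lef1, called by DESeq2. In D4 progeny edgeR called 0 of 10 (1.97% of all genes), with 6 at an unadjusted p under 0.05 (10.3% of all genes) and 4 called by DESeq2. The share of all genes that DESeq2 called was not counted, here or below. The 5 calls of D6 progeny were 1 higher and 4 lower in Sox1-FOXA2+, where 3.59% and 3.32% of all genes were. Among sorted cells, the libraries of both gates lay apart without overlap for 2 of 9 genes at D2 (9.71% of all genes), for 3 of 10 at D4 (10.7%) and for 3 of 10 at D6 (22.7%). Among progeny they did so for 4 of 10 genes on D4 (13.9%) and for 8 of 10 on D6 (26.0%). From D4 on Dkk1 was the higher gene among these and the others were lower, while at D2 Sp5 was higher and Lef1 lower. In sorted cells the lower genes were Lef1 and Sfrp1 at D4 and Nkd1 and Sfrp2 at D6. The median log2 difference over the 10 genes was −1.22 at D6 and −1.87 in D6 progeny, against −0.30 and −0.04 over all genes tested.

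Dkk1 (ENSMUSG00000024868.8, chr19:30545863-30549665, minus strand) encodes a secreted antagonist of the LRP5 and LRP6 coreceptors. It lay at 36.8, 14.4 and 12.8 CPM in D4 Sox1-FOXA2+ libraries and at 2.65, 0 and 2.17 CPM in D4 Sox1+FOXA2- libraries. At D6 the same gates gave 20.7, 17.7 and 20.7 CPM against 3.52, 0 and 0 CPM. The groups did not overlap on either day, but neither difference was called (3.74 ± 2.18 and 3.99 ± 2.09 log2 (SE), edgeR adjusted p = 0.924 and 0.4). In D4 progeny the level was 16.1, 44.3 and 16.6 CPM in the Sox1-FOXA2+ libraries and 0, 1.68 and 4.74 CPM in the Sox1+FOXA2- ones. In D6 progeny it was 23.1, 10.3 and 14.6 CPM against 0.268, 1.5 and 2.37 CPM. Only the last difference passed the test, by 3.48 ± 0.988 log2 (SE, edgeR adjusted p = 0.0497), against 3.54 ± 1.05 log2 in D4 progeny (edgeR adjusted p = 0.138). The D6 progeny call was lost without any 1 of the 3 Sox1-FOXA2+ or the 3 Sox1+FOXA2- libraries (adjusted p = 0.0638 to 0.16). Over D4 and D6, sorted and progeny together, the 12 Sox1-FOXA2+ libraries ranged from 10.3 to 44.3 CPM with a median of 17.2. The 12 Sox1+FOXA2- libraries ranged from 0 to 4.74 CPM with a median of 1.59. These pools mix days and arms, so their libraries are not replicates of each other. The share of all genes that lie apart in such pools was not counted.

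Sfrp2 (ENSMUSG00000027996.13, chr3:83766321-83774316, plus strand) encodes a secreted Frizzled-related protein that binds Wnt ligands. It stood at 0.377, 0 and 0 CPM in sorted D6 Sox1-FOXA2+ libraries and at 28.5, 37.2 and 22.5 CPM in Sox1+FOXA2- ones. The groups were far apart, and Sfrp2 was lower in Sox1-FOXA2+ cells by −7.81 ± 1.58 log2 (SE, edgeR adjusted p = 0.00427), the fitted size resting on 2 libraries at 0. Leaving out each library in turn kept the call, with an adjusted p between 0.000389 and 0.0229. At D4 the same gates gave 1.31, 16.8 and 3.06 CPM against 48.7, 127 and 15.7 CPM, which overlapped and was not called (−3.20 ± 1.25 log2, edgeR adjusted p = 0.872). At D2 they gave 15.1, 19.1 and 9.68 CPM against 17.6, 17.2 and 5.42 CPM, levels that overlapped. In D6 progeny Sfrp2 was at 0.274, 0.692 and 1.02 CPM against 2.52, 1.02 and 3.46 CPM, values that only just did not overlap and were not called (−1.93 log2, edgeR adjusted p = 0.596).

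**Figure D2:**
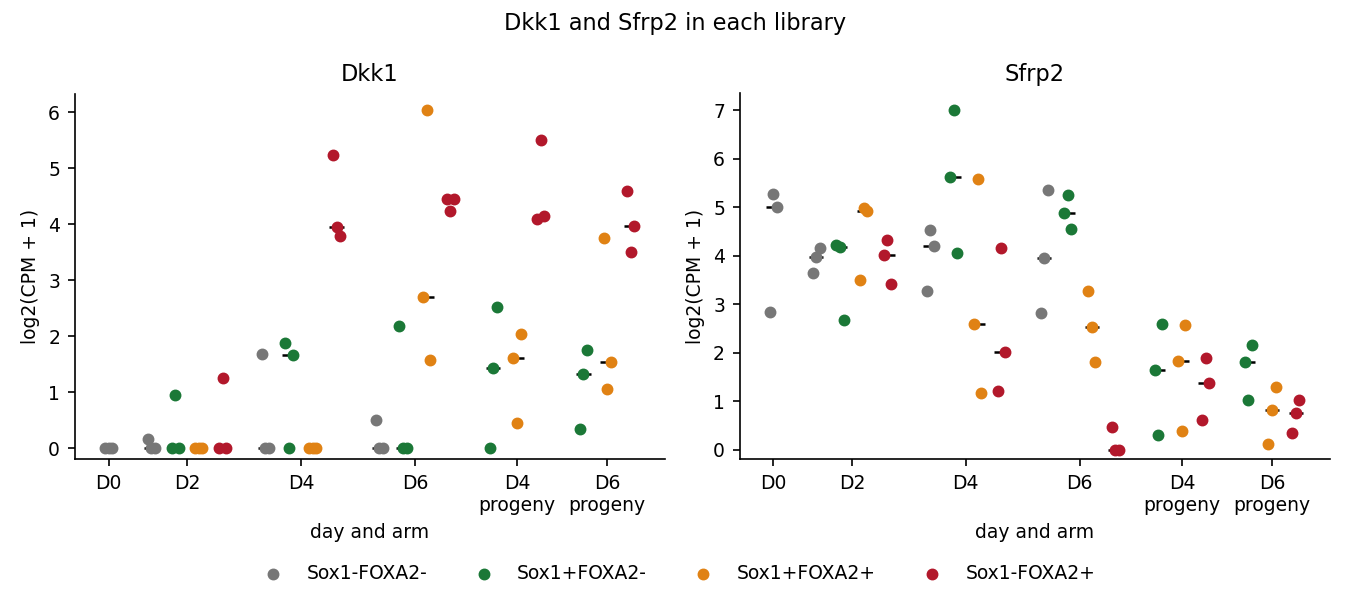
Dkk1 and Sfrp2 in each library as log2(CPM + 1) on the vertical axis, by condition on the horizontal axis, with 1 dot per library, a short line at the median of 3 and colour for the gate. Dkk1 dots of Sox1-FOXA2+ from D4 on lie at 10.3 CPM or above, and the 3 sorted D6 Sox1-FOXA2+ dots of Sfrp2 lie at or below 0.377 CPM.

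Sfrp1 (ENSMUSG00000031548.7, chr8:23411502-23449632, plus strand), the related Wnt-binding inhibitor, gave 2.74, 11.6 and 8.64 CPM in D6 progeny of Sox1-FOXA2+ cells and 50.4, 116 and 51.3 CPM in progeny of Sox1+FOXA2- cells. Its level was lower by −3.34 ± 0.527 log2 (SE, edgeR adjusted p = 0.00156), and the call held without each library in turn (adjusted p between 0.000371 and 0.0138). In D4 progeny the values were 15.5, 10.9 and 17.3 CPM against 26.9, 50.6 and 26.0 CPM, which did not overlap and were not called (−1.24 ± 0.39 log2, edgeR adjusted p = 0.146). Sorted cells showed no such gap at D6, with 19.9, 9.01 and 36.3 CPM against 20.8, 29.0 and 15.2 CPM.

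Of the feedback regulators, Axin2 (ENSMUSG00000000142.15, chr11:108920349-108950783, plus strand) was lower in D6 progeny of Sox1-FOXA2+ cells, and Nkd1 (ENSMUSG00000031661.12, chr8:88521354-88594884, plus strand) was not called in progeny of either day. Axin2 lay at 8.57, 27.8 and 23.9 CPM in D6 progeny of Sox1-FOXA2+ cells and at 76.0, 75.5 and 51.1 CPM in progeny of Sox1+FOXA2- cells. The groups did not overlap and the difference was called (−1.85 ± 0.479 log2 (SE), edgeR adjusted p = 0.0328). It was lost without Sox1+FOXA2- replicate 1, 2 or 3, Sox1+FOXA2+ replicate 2 or Sox1-FOXA2+ replicate 3 of D6 progeny (adjusted p = 0.066 to 0.164). In D4 progeny Axin2 gave 18.3, 13.0 and 24.9 CPM against 47.8, 66.4 and 32.9 CPM (−1.39 ± 0.376 log2, edgeR adjusted p = 0.0698). Nkd1 gave 11.9, 5.75 and 8.53 CPM against 44.6, 27.1 and 13.4 CPM in D4 progeny (−1.71 ± 0.49 log2, edgeR adjusted p = 0.0944). With the replicate number as a block, both were called in D4 progeny, where same-numbered libraries deviated together (Axin2 adjusted p = 0.0188, Nkd1 adjusted p = 0.022). They were called as well without Sox1+FOXA2- replicate 3 of D4 progeny (Axin2 adjusted p = 0.0442, Nkd1 adjusted p = 0.0345). In D6 progeny Nkd1 gave 0.329, 4.7 and 4.18 CPM against 12.3, 21.4 and 12.2 CPM, did not overlap and was not called (−2.43 ± 0.766 log2, edgeR adjusted p = 0.0792).

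**Figure D3:**
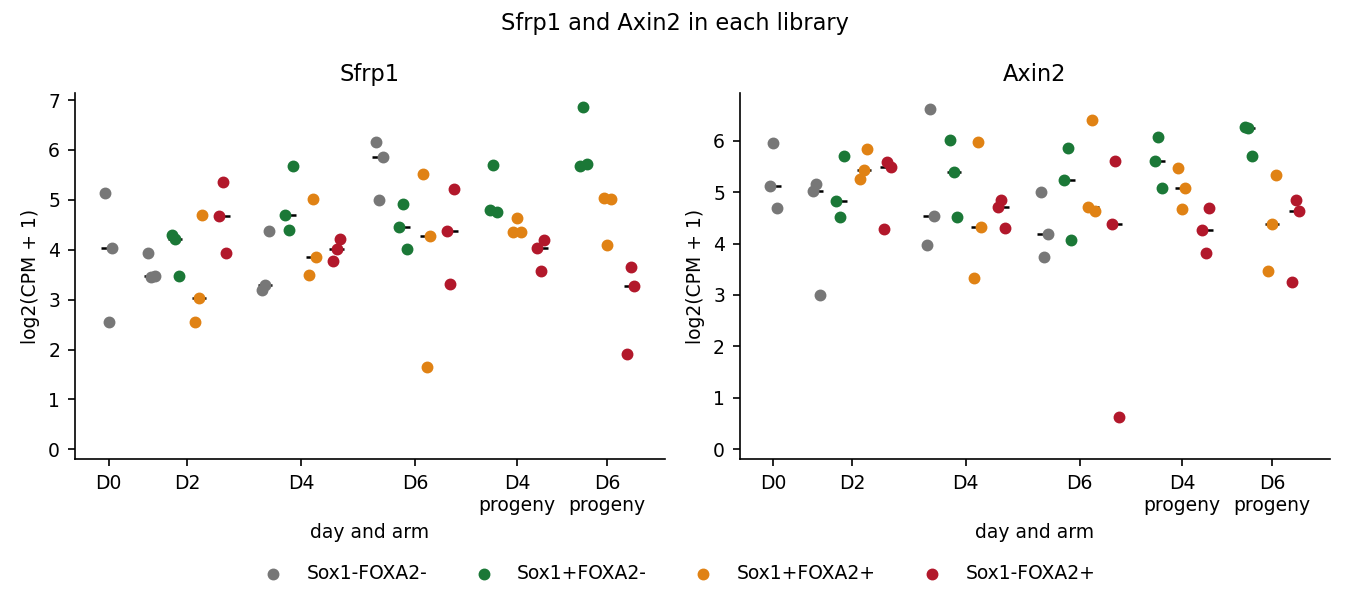
Sfrp1 and Axin2 in each library as log2(CPM + 1) on the vertical axis, by condition, with 1 dot per library, a short line at the median of 3 and colour for the gate. In D6 progeny the Sox1+FOXA2- dots of both genes lie at 50.4 CPM or above and the Sox1-FOXA2+ dots at 27.8 CPM or below.

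Sp5 (ENSMUSG00000075304.2, chr2:70474923-70477729, plus strand), a transcription factor and direct target of beta-catenin, was at 0 in all 3 D6 progeny libraries of Sox1-FOXA2+ cells and at 1.5, 0.0787 and 4.38 CPM in those of Sox1+FOXA2- cells. Set against a floor of 3 counts per library, its mean was at least 27.5-fold lower (edgeR adjusted p = 0.0437), or at least 11.0-fold without Sox1+FOXA2- replicate 3. That bound holds for the means only, since Sox1+FOXA2- replicate 2 held 4 counts, near the floor. The highest Sp5 library in the series reached 11.5 CPM. The call was lost without any 1 of 6 of the 9 D6 progeny libraries, namely Sox1-FOXA2+ replicates 1, 2 and 3, Sox1+FOXA2- replicates 1 and 3 and Sox1+FOXA2+ replicate 3 (adjusted p = 0.0547 to 0.169). Lef1 (ENSMUSG00000027985.14, chr3:131110471-131224356, plus strand), a TCF/LEF factor that is itself a target, was not called between these gates at any time. Its closest differences were at D2, with 19.1, 8.16 and 8.09 CPM against 35.5, 98.4 and 29.6 CPM, and at D4, with 15.7, 13.7 and 8.03 CPM against 78.9, 21.5 and 33.1 CPM. The groups did not overlap on either day. At D4 the difference was −1.83 ± 0.569 log2 (SE, edgeR adjusted p = 0.366), and DESeq2 called it at the same size (adjusted p = 0.0337). In D6 progeny Lef1 gave 0.931, 4.78 and 3.84 CPM against 7.51, 6.57 and 9.12 CPM, also without overlap and not called.

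Wnt5a (ENSMUSG00000021994.15, chr14:28504750-28527448, plus strand), a ligand best known for beta-catenin-independent signalling, was lower in D6 progeny of Sox1-FOXA2+ cells at 16.9, 14.1 and 9.71 CPM than in progeny of Sox1+FOXA2- cells at 39.2, 45.4 and 36.8 CPM. The groups did not overlap and differed by −1.67 ± 0.351 log2 (SE, edgeR adjusted p = 0.00792). The call held without each library in turn (adjusted p between 0.0011 and 0.0367). In D4 progeny the gates gave 5.7, 4.55 and 8.26 CPM against 5.5, 38.4 and 15.0 CPM, which overlapped. Rspo3 (ENSMUSG00000019880.10, chr10:29452416-29535867, minus strand), an R-spondin that strengthens Wnt signalling through LGR receptors, gave 15.6, 3.81 and 6.15 CPM against 12.9, 24.9 and 13.8 CPM in D6 progeny and was not called (edgeR adjusted p = 0.301).

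**Figure D4:**
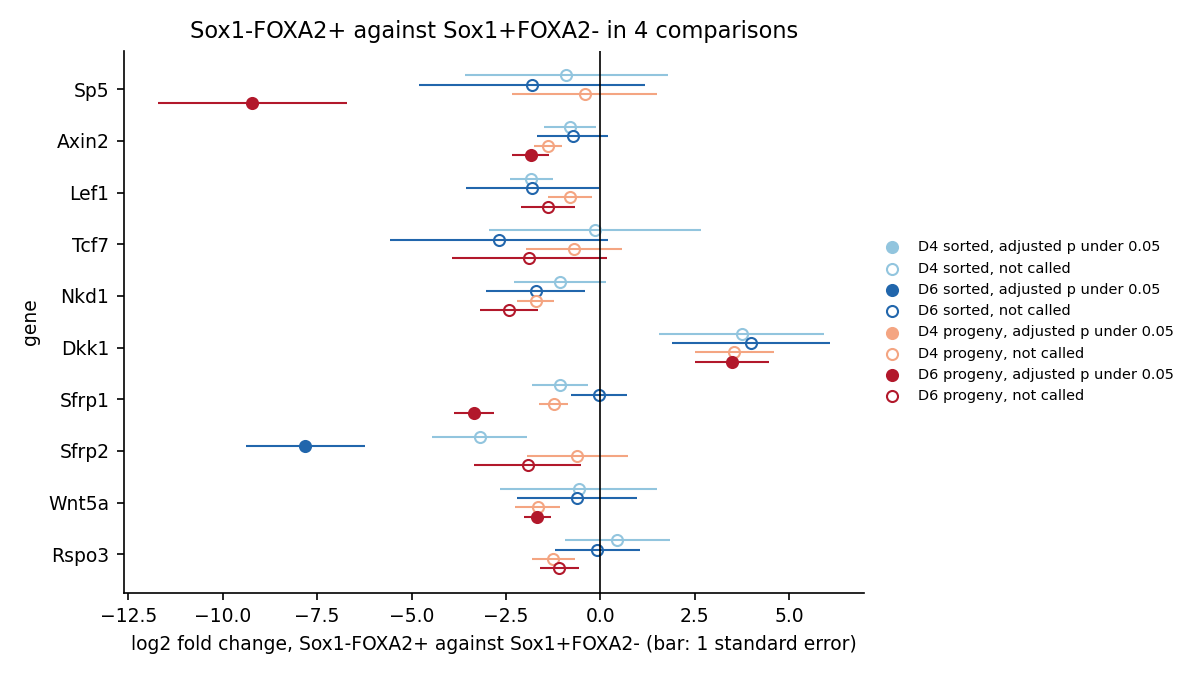
Fitted log2 difference of Sox1-FOXA2+ against Sox1+FOXA2- for each of the 10 genes, with bars of 1 SE, in sorted D4 and D6 cells and in D4 and D6 progeny. Filled points have an edgeR adjusted p under 0.05, 1 of them in sorted D6 cells and 5 in D6 progeny. Dkk1 is the gene whose point is above 0 in all 4 sets and is filled in D6 progeny.

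With all 57 libraries in 1 edgeR fit, which takes the spread from every condition, Sfrp1 stayed called in D6 progeny and the other 4 calls were lost (adjusted p = 0.348 for Sp5, 0.651 for Axin2, 1.0 for Wnt5a and 0.826 for Dkk1). Dkk1 was also lost in the fit without robust estimation (adjusted p = 0.0534). Marker lists moved with the same contrast. In D6 progeny of Sox1-FOXA2+ against Sox1+FOXA2- cells, all 10 endoderm markers were higher, with sums of 32300 to 58500 CPM against 1190 to 3710 CPM. All 6 tested neural progenitor markers were lower, with sums of 206 to 345 CPM against 1390 to 2430 CPM, Sox1 itself being at 0. Both lists include genes that the study named from these same data as separating the gates. Their direction is a description and no independent support. Of 8 mesenchyme and neural crest markers 1 was higher and 2 were lower, with sums of 337 to 1220 CPM against 1920 to 3260 CPM. Their part in the differences of the Wnt genes was not tested.

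The Sox1+FOXA2+ cells, sorted as expressing both reporters, were compared with each single-reporter gate of the same day. Dkk1 was at 0 in all 3 sorted D4 Sox1+FOXA2+ libraries, against 36.8, 14.4 and 12.8 CPM in the Sox1-FOXA2+ ones. With a floor of 3 counts per library its mean was at least 326-fold lower, or at least 208-fold without Sox1-FOXA2+ replicate 1, yet the edgeR test did not call Dkk1 (adjusted p = 0.0967). It was called without any 1 of the 3 D4 Sox1-FOXA2- libraries or without Sox1+FOXA2- replicate 2, which shared the fit (adjusted p = 0.0251 to 0.04). At D6 the Sox1+FOXA2+ libraries held 5.52, 64.3 and 1.99 CPM of Dkk1, which overlapped the levels of both single-reporter gates. Sfrp2 in the same D6 libraries was at 8.68, 4.76 and 2.5 CPM, below all 3 Sox1+FOXA2- libraries and above all 3 Sox1-FOXA2+ libraries. Against Sox1-FOXA2+, 2 of 10 genes lay without overlap at D4 (18.5% of all genes) and 2 at D6 (12.3%), with 4 in progeny of D4 (16.8%) and 3 in those of D6 (21.7%). Against Sox1+FOXA2- there were 0 at D4 (11.2%) and 3 at D6 (9.09%), with 2 in progeny of D4 (12.6%) and 2 in those of D6 (16.4%). For Sfrp2 in sorted D6 cells, DESeq2 called the difference of Sox1+FOXA2+ from Sox1-FOXA2+ (5.67 log2, adjusted p = 2.47e-05) and edgeR did not (5.27 ± 1.42 log2 (SE), adjusted p = 0.146). Against Sox1-FOXA2+, edgeR called 0 of 10 genes at D4 (0.475% of all genes called), at D6 (0.0909%) and in D4 progeny (0.792%). At an unadjusted p under 0.05 there were 2, 2 and 3 of them (10.5%, 14.2% and 8.88% of all genes), and DESeq2 called 0, 1 and 1. Against Sox1+FOXA2-, edgeR called 0 of 10 sorted at D4 (0.0% of all genes) or at D6 (0.0496%), with 1 each at an unadjusted p under 0.05 (6.82% and 4.43%) and 0 called by DESeq2. Against the same gate edgeR called 0 of 10 in progeny of D4 (0.00483%) and of D6 (0.18%), with 0 and 2 at an unadjusted p under 0.05 (4.72% and 9.38%) and 0 called by DESeq2.

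In D6 progeny, 2 of 10 genes were higher in the descendants of Sox1+FOXA2+ cells than in those of Sox1-FOXA2+ cells (4.63% of all genes called). Wnt5a was at 25.5, 63.4 and 58.8 CPM against 16.9, 14.1 and 9.71 CPM, by 1.96 ± 0.354 log2 (SE, edgeR adjusted p = 0.00481). That call held without each library in turn (adjusted p between 0.000509 and 0.0295). Sfrp1 was at 32.0, 16.0 and 31.5 CPM against 2.74, 11.6 and 8.64 CPM, by 1.90 ± 0.499 log2 (SE, edgeR adjusted p = 0.0483). The Sfrp1 call was lost without any 1 of 6 libraries (Sox1+FOXA2- replicates 1 and 3, Sox1+FOXA2+ replicates 1, 2 and 3 and Sox1-FOXA2+ replicate 3 of D6 progeny), at an adjusted p of 0.0628 to 0.199. Rspo3, at 35.9, 14.0 and 26.0 CPM against 15.6, 3.81 and 6.15 CPM, was not called (1.67 ± 0.53 log2, edgeR adjusted p = 0.0959), but was called without Sox1-FOXA2+ replicate 1 (2.49 log2, adjusted p = 0.00482). Both calls were lost with all 57 libraries in 1 fit (adjusted p = 0.995 for Wnt5a and 0.562 for Sfrp1). These comparisons share the Sox1-FOXA2+ libraries with the comparison against Sox1+FOXA2- above.

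Sorted D6 Sox1-FOXA2- cells, which express neither reporter, held 6.06, 14.4 and 40.2 CPM of Sfrp2, and Sfrp2 was lower than that in the D6 Sox1-FOXA2+ libraries (−7.26 ± 1.54 log2 (SE), edgeR adjusted p = 0.00939; 1.0% of all genes called). That difference used the same Sox1-FOXA2+ libraries as before and was not called without Sox1-FOXA2- replicate 3 (−6.26 log2, adjusted p = 0.0718). Dkk1 stood at 0.419, 0 and 0 CPM in the Sox1-FOXA2- libraries and was not called against Sox1-FOXA2+ (7.0 ± 2.42 log2, edgeR adjusted p = 0.316). With the replicate block, which the data bear out for this pair of gates, it was called (adjusted p = 0.0337). Wnt5a lay at 37.7, 23.1 and 19.3 CPM in Sox1-FOXA2- cells, and Rspo3 at 43.3, 18.4 and 34.4 CPM, its highest mean of the 19 conditions. Against Sox1+FOXA2- cells of D6, with 1.04, 0 and 2.99 CPM of Wnt5a and 11.5, 11.5 and 5.36 CPM of Rspo3, neither gene overlapped. In that comparison 4 of 10 genes did not overlap (13.7% of all genes), and edgeR called 0 of 10 (0.0%), with 1 at an unadjusted p under 0.05 (3.24%) and 0 by DESeq2.

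Progeny were set against sorted cells of the same day, as the mean of the 3 gates. Wnt5a rose and Lef1 fell in D6 progeny, and Sfrp2 and Lef1 fell in D4 progeny. At D6 edgeR called 2 of 10 genes (14.2% of all genes), 1 higher and 1 lower in progeny (7.07% and 7.11% of all genes). At D4 it called 3 of 10 (6.99%), 1 higher and 2 lower (3.42% and 3.57%). Wnt5a in sorted D6 libraries was at 9.13, 11.7 and 12.3 CPM in Sox1+FOXA2+, 1.04, 0 and 2.99 CPM in Sox1+FOXA2- and 2.58, 0 and 0 CPM in Sox1-FOXA2+ cells. In D6 progeny it was at 25.5, 63.4 and 58.8 CPM, 39.2, 45.4 and 36.8 CPM, and 16.9, 14.1 and 9.71 CPM. Progeny lay above sorted cells within each of the 3 gates, with no overlap in any gate. The rise was 3.62 ± 0.848 log2 (SE, edgeR adjusted p = 0.0084) and held without each library in turn, between 3.42 and 6.34 log2 (adjusted p between 1.46e-06 and 0.0345). Mesenchyme and neural crest markers were called higher in D6 progeny for 5 of 8 genes, and their sums went from 33.0 to 53.2 CPM in sorted to 1920 to 3260 CPM in progeny Sox1+FOXA2- libraries. The sums went from 74.3 to 422 CPM to 718 to 1100 CPM in Sox1+FOXA2+ libraries, and those of Sox1-FOXA2+ overlapped, at 193 to 746 CPM sorted and 337 to 1220 CPM in progeny. Their part in the Wnt5a difference was not tested.

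Lef1 ranged from 0.433 to 204 CPM with a median of 28.6 in the 9 sorted D6 libraries of these gates, and from 0.931 to 14.1 CPM with a median of 6.57 in the 9 of D6 progeny. The fall was −2.60 ± 0.775 log2 (SE, edgeR adjusted p = 0.0366). At D4 the ranges were 8.03 to 78.9 CPM (median 21.5) and 3.48 to 19.5 CPM (median 12.9), a fall of −1.32 ± 0.368 log2 (SE, edgeR adjusted p = 0.0269). Both pairs of ranges overlapped, and both calls rested on the full set of libraries. The D6 call was lost on leaving out any 1 of 15 of the 18 libraries (adjusted p = 0.0501 to 0.114), namely the 9 of progeny, the 3 sorted Sox1+FOXA2- ones, Sox1+FOXA2+ replicates 1 and 3 and Sox1-FOXA2+ replicate 3. The D4 call was lost for 12 of 18 (adjusted p = 0.0514 to 0.143), which were 7 of progeny (all but replicate 3 of Sox1+FOXA2- and of Sox1-FOXA2+) and the sorted Sox1+FOXA2- and Sox1-FOXA2+ replicates 1 and 3 and Sox1+FOXA2+ replicate 3. With all 57 libraries in 1 fit the D4 call was lost (adjusted p = 0.274). The highest sorted D6 value, 204 CPM, came from Sox1+FOXA2+ replicate 1, the library with no Foxa2 count, and without it the fall was −1.88 log2 (adjusted p = 0.0507).

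Sfrp2 in the 9 sorted D4 libraries was at 5.02, 46.7 and 1.25 CPM in Sox1+FOXA2+, 48.7, 127 and 15.7 CPM in Sox1+FOXA2- and 1.31, 16.8 and 3.06 CPM in Sox1-FOXA2+ cells. In D4 progeny the same gates gave 2.56, 0.311 and 4.91 CPM, 2.11, 0.227 and 5.01 CPM, and 0.518, 2.69 and 1.58 CPM. The Sox1+FOXA2- values did not overlap and the other 2 gates did. The fall was −3.24 ± 0.793 log2 (SE, edgeR adjusted p = 0.0184), and it was lost without replicate 1 of any of the 3 progeny gates or Sox1-FOXA2+ progeny replicate 3 (adjusted p = 0.0541 to 0.0686). Over all conditions Sfrp2 ran from 0 to 127 CPM with a median of 15.1 in 39 sorted libraries, and from 0.0844 to 5.01 CPM with a median of 1.24 in 18 progeny libraries. The sorted set includes D0, D2 and Sox1-FOXA2- libraries, which have no counterpart among progeny. In the 3 shared gates the sorted and progeny medians were 15.7 and 2.11 CPM at D4 and 4.76 and 1.02 CPM at D6. At D6 edgeR did not call Sfrp2 and DESeq2 did (adjusted p = 0.0354). Dkk1 was called higher in D4 progeny (edgeR adjusted p = 0.0277), with a mean of 9.88 CPM against 7.64 CPM in sorted cells. That call rests on the Sox1+FOXA2+ gate, at 0 in 3 of 3 sorted libraries and at 2.05, 0.373 and 3.09 CPM in progeny, so its fitted size is not given. It was lost without Sox1-FOXA2+ progeny replicate 2 or sorted Sox1+FOXA2+ replicate 3 (adjusted p = 0.0589 and 0.0587) and with all 57 libraries in 1 fit (adjusted p = 0.149).

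**Figure D5:**
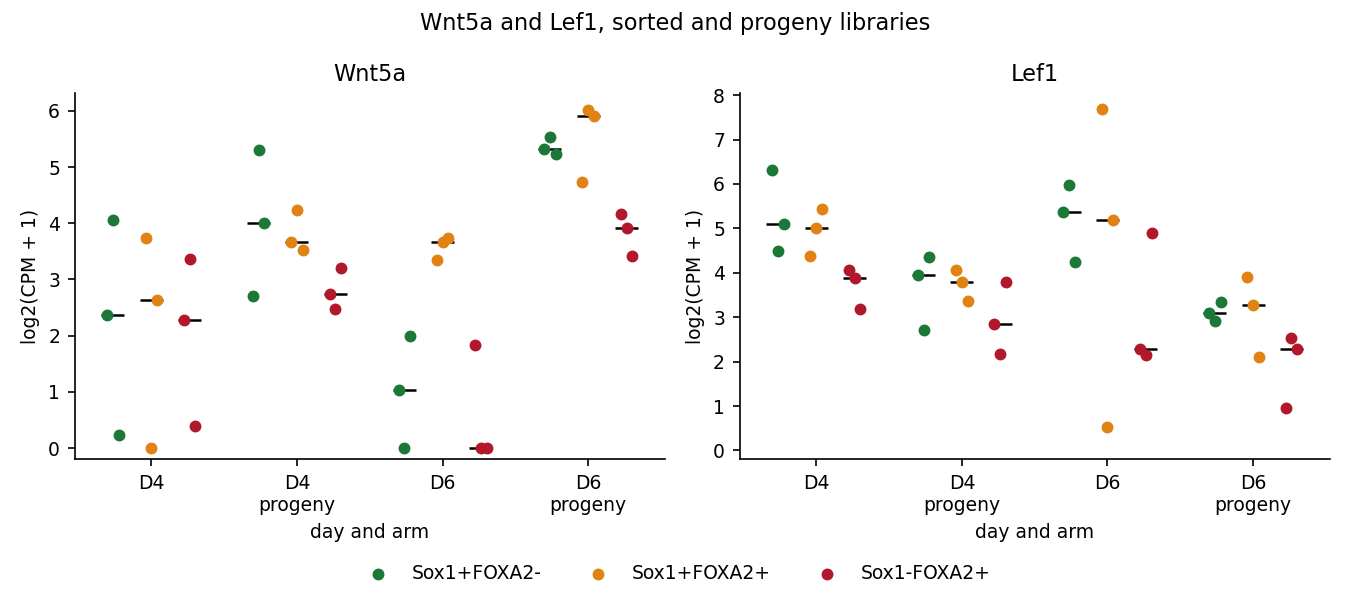
Wnt5a and Lef1 in each sorted and progeny library of D4 and D6 for the 3 gates present in both arms, as log2(CPM + 1) on the vertical axis, with 1 dot per library, a short line at the median of 3 and colour for the gate. D6 progeny dots of Wnt5a lie at 9.71 to 63.4 CPM, above the sorted dots of the same gate in each case, while the Lef1 dots of the 2 arms overlap.

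Whether the change from sorted cells to progeny differed between Sox1-FOXA2+ and Sox1+FOXA2- was tested as an interaction. At D4 edgeR called 0 of 10 genes (0.0% of all genes), with 0 at an unadjusted p under 0.05 (4.81%) and 0 by DESeq2. At D6 edgeR called 0 of 10 (0.0196%), with 3 at an unadjusted p under 0.05 (11.2%) and 2, Sp5 and Sfrp2, by DESeq2. Sfrp2 and Sfrp1 were the nearest of them, at 6.08 ± 2.03 and −3.24 ± 1.06 log2 (SE, edgeR adjusted p = 0.36 for both). A gate difference found in sorted cells or in progeny alone is therefore not shown to differ between the arms.

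Over time, no change of the 10 genes was called by edgeR within a gate. In Sox1-FOXA2+ cells Dkk1 went from 0, 1.37 and 0 CPM at D2 to 20.7, 17.7 and 20.7 CPM at D6, without overlap (5.43 ± 1.5 log2 (SE), edgeR adjusted p = 0.0801). Without D2 Sox1-FOXA2+ replicate 2 it was called (adjusted p = 0.000111). Sfrp2 in the same libraries went from 15.1, 19.1 and 9.68 CPM to 0.377, 0 and 0 CPM (−6.83 ± 1.98 log2 (SE), edgeR adjusted p = 0.0895), and was called without D6 Sox1-FOXA2+ replicate 1 (adjusted p = 0.0278) and by DESeq2 (adjusted p = 3.47e-05). In this gate edgeR called 0 of 10 between D6 and D2 (2.23% of all genes), with 2 at an unadjusted p under 0.05 (14.5%) and 1 by DESeq2, and 3 of 10 did not overlap (16.8%). In Sox1+FOXA2- cells edgeR called 0 of 10 (0.0%), with 0 at an unadjusted p under 0.05 (11.4%) and 0 by DESeq2. In Sox1+FOXA2+ cells edgeR called 0 of 10 (0.126%), with 1 at an unadjusted p under 0.05 (13.9%) and 1, Dkk1, by DESeq2.

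In Sox1-FOXA2- cells edgeR called 0 of 8 tested genes between D2 and D0 (1.93% of all genes), with 0 at an unadjusted p under 0.05 (15.7%) and 0 by DESeq2. Between D6 and D2 edgeR called 0 of 8 (0.0188%), with 3 at an unadjusted p under 0.05 (6.83%) and 2 by DESeq2, and 3 of 8 did not overlap (16.3%). Rspo3 was called by DESeq2, at 1.08, 0.206 and 0.172 CPM at D2 and 43.3, 18.4 and 34.4 CPM at D6 (6.11 ± 1.49 log2 (SE), edgeR adjusted p = 0.25, DESeq2 adjusted p = 3.65e-05). Sfrp1 was called by DESeq2 as well, at no more than 14.2 CPM in the D2 libraries and at 70.3, 31.0 and 56.7 CPM at D6 (2.28 ± 0.642 log2 (SE), edgeR adjusted p = 0.394, DESeq2 adjusted p = 0.0185). Neither overlapped between the days. Between D4 and D6 progeny, edgeR called 0 of 10 in Sox1-FOXA2+ (0.341% of all genes), Sox1+FOXA2- (0.0125%) and Sox1+FOXA2+ cells (0.0916%), with 4, 2 and 1 at an unadjusted p under 0.05 (8.17%, 6.58% and 5.77%) and 0, 0 and 1 by DESeq2. Wnt5a in Sox1+FOXA2+ progeny was the gene DESeq2 called, going from 11.7, 17.9 and 10.5 CPM to 25.5, 63.4 and 58.8 CPM (1.89 ± 0.484 log2 (SE), edgeR adjusted p = 0.191).

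The other genes of the pathway, 99 in all, were counted for the gate difference at D6, as ligands, receptors and agonists, inhibitors, intracellular components, other targets and planar cell polarity genes. In sorted D6 cells edgeR called 0 of 96 tested (1.32% of all genes), with 18 at an unadjusted edgeR p under 0.05 (13.4% of all genes). DESeq2 called 13, but its share over all genes was not counted, so that number cannot be set against one. In D6 progeny edgeR called 10 of 90, 3 higher and 7 lower in Sox1-FOXA2+. None of 16 ligands was called. Of 22 receptors and agonists 3 were lower, among them the receptor Fzd3 at 13.4, 12.0 and 19.5 CPM against 46.7, 45.9 and 36.7 CPM (−1.63 ± 0.349 log2 (SE), edgeR adjusted p = 0.00876). Among 14 other inhibitors the secreted antagonist Frzb was higher, at 12.4, 31.0 and 27.1 CPM against 1.45, 0.787 and 0.365 CPM (4.61 ± 0.826 log2 (SE), edgeR adjusted p = 0.00245). Of 21 intracellular components 1 was higher and 2 were lower. The TCF/LEF factor Tcf7l2 was the higher one, at 696, 1010 and 560 CPM against 128, 151 and 99.8 CPM (2.49 ± 0.268 log2 (SE)). The beta-catenin cofactor Bcl9, at 26.1 CPM or less against 48.3, 86.2 and 71.1 CPM, and the corepressor Tle1, at 51.8, 125 and 85.7 CPM against 241, 341 and 164 CPM, were the lower ones. Of 9 other targets the cyclin gene Ccnd1 was lower, at 5.56, 6.27 and 2.2 CPM against 33.1, 27.2 and 35.5 CPM. Of 8 planar cell polarity genes Vangl1 was higher, at 264, 188 and 219 CPM against 35.6, 44.1 and 38.1 CPM, and Prickle2 was lower, at 88.8, 120 and 69.9 CPM against 285, 376 and 247 CPM. These shares stand beside the 6.91% of all genes called in that comparison.

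The patterns of the 10 genes over the conditions were compared by Pearson's r of their mean log2 CPM, as a description over 19 condition means that share libraries' depth and composition. Lef1 and Sfrp2 were most alike (r = 0.72), and Tcf7 with Nkd1 (r = 0.61) and Wnt5a with Rspo3 (r = 0.57) came after them. Dkk1 ran opposite to Sfrp2 (r = −0.74) and to Lef1 (r = −0.68). Among genes with a mean of at least 10 CPM, the nearest to Dkk1 were Sh3tc2 (r = 0.95), Hs3st1 (r = 0.93) and Ggta1 (r = 0.93). The nearest to Sfrp2 were Klhl8, Nipsnap1 and Sept3 (r = 0.90 each), and those to Lef1 were Ccdc73 (r = 0.91), Zfp640 (r = 0.90) and Esrrb (r = 0.90), the last a pluripotency factor. Nkd1 ran with Fbn2 (r = 0.90), Mirg (r = 0.90) and Mrc2 (r = 0.88), and Rspo3 with Pcdh7 (r = 0.90), Mir99ahg (r = 0.87) and Kif26b (r = 0.87). Wnt5a was closest to Tns1 (r = 0.85), Gpc4 (r = 0.83) and the collagen gene Col3a1 (r = 0.82), and Sfrp1 to Hmcn1 (r = 0.82), Mmp2 (r = 0.75) and Dpysl2 (r = 0.74). Axin2 was closest to Irf1 (r = 0.82), Micu2 (r = 0.82) and Hsd17b4 (r = 0.80), Sp5 to Zfp386 (r = 0.75), Zfp647 (r = 0.69) and Pctp (r = 0.69), and Tcf7 to Col5a1 (r = 0.70), Homer1 (r = 0.68) and Col7a1 (r = 0.67).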

How the data were processed

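The authors collected small pools of cells, sorted by gate or, for progeny, harvested and counted by hand, made libraries with the SMART-Seq Stranded Kit and aligned the reads with STAR. They counted reads per gene with featureCounts against GENCODE M21 (GRCm38), with SAMtools also named in their notes. Tool versions and the strand setting are not given in the sources used here. The authors deposited raw whole-number counts, of which 80.6% of those above 0 were even. Whether both mates of a read pair were counted is not given, and if so, the floor below stands for fewer fragments than counts and the fold bounds would be smaller. Another 92 lines named no gene and held 0 counts.

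The main test was the quasi-likelihood test of edgeR 4.0.16 (limma 3.58.1, R 4.3.3), two-sided, with TMM scaling, filterByExpr (minimum count 10, minimum total 15), a prior count of 0.125 and Benjamini-Hochberg adjustment over all genes tested at 0.05. The gates of a day and arm shared 1 fit, and comparisons over time or between arms were fitted on the libraries they concern. The main fit used robust estimation of the dispersion, which the plan did not state. The fit without it was added as an alternative after the data were seen. Other alternatives were DESeq2 1.42.0, RLE scaling, no filter on low counts, the replicate number as a block, all 57 libraries in 1 fit and each library left out in turn. The fits were tested on simulated data. Python 3.11.15, pandas 2.3.3, numpy 2.4.6 and matplotlib 3.10.9 made the tables and plots.

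Printed CPM are TMM-scaled over all 57 libraries, and correlations used log2 CPM with a prior count of 2. A group at 0 was given a floor of 3 counts per library, and a fold bound sets the mean of the other group against the mean floor. Floors cover counting error only, since no molecular identifiers were used. No 2 libraries held identical counts.

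The replicate numbers come from the labels. Over 5000 genes, same-numbered libraries deviated together (every r over 0.1) between the single-reporter gates at D4 and D6, between Sox1+FOXA2+ and Sox1+FOXA2- at D4 and D6, between Sox1-FOXA2- and either single-reporter gate at D6, among all gates of D4 progeny, between Sox1+FOXA2+ and Sox1-FOXA2+ in D6 progeny and between D6 and D2 of Sox1-FOXA2-. Elsewhere at least 1 r did not pass 0.1, and the numbers were not taken as pairs. In D6 progeny of Sox1-FOXA2+ and Sox1+FOXA2- cells r still ran from 0.092 to 0.435, with 2 of 3 over 0.1.

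The members and lists were chosen with earlier results of these data known. Calls were counted over all members tested in each main comparison, but values are printed only for some members in each. Of other pathway genes, at most the 8 called with the largest log2 fold change between Sox1-FOXA2+ and Sox1+FOXA2- at D6 are named, and for likeness the 3 nearest genes with a mean of at least 10 CPM. Sequences are RefSeq's. Imaging data of the study were not used here.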

Additional observations from a re-analysis of the deposited data

How the results depend on the processing

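No fold change of the 10 genes with an adjusted p under 0.1 turned its direction under any alternative. Sfrp2 at D6 and Sfrp1 in D6 progeny, both for Sox1-FOXA2+ against Sox1+FOXA2-, and Wnt5a in D6 progeny against sorted cells were called under every alternative. The other calls were not, and the cause was not tested. Sp5 and Dkk1 were at 0 in 23 of 57 libraries each and Tcf7 in 14, so low counts bear on their values. RLE scaling moved the median of all genes by 0.13 to 0.22 log2 in 5 comparisons of sorted Sox1+FOXA2+ cells and by −0.13 in D6 progeny against sorted, and changed no count by over 1.5 times. Neither did the fit without robust estimation.

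The number of the 10 genes called moved as follows, the share of all genes called under the alternatives not being counted. For Sox1-FOXA2+ against Sox1+FOXA2- at D4 it went from 0 to 1 with DESeq2 and 1 with no filter. In D4 progeny it went from 0 to 4 with DESeq2, 3 with no filter and 2 with the replicate block, and in D6 progeny from 5 to 3 with the replicate block and 1 with all 57 libraries in 1 fit. For Sox1+FOXA2+ against Sox1-FOXA2+ it went from 0 to 1 at D4 with no filter or the block, from 0 to 1 at D6 with DESeq2, no filter or all libraries, from 0 to 1 in D4 progeny with DESeq2 or no filter, and from 2 in D6 progeny to 4 with DESeq2, 5 with no filter and 0 with all libraries. For Sox1+FOXA2+ against Sox1+FOXA2- in D6 progeny no filter gave 2 against 0. For Sox1-FOXA2+ against Sox1-FOXA2- at D6 DESeq2, no filter and the block gave 2 against 1. Between D6 and D2, DESeq2 and no filter gave 2 against 0 in Sox1-FOXA2-, and against 0 in Sox1-FOXA2+ and in Sox1+FOXA2+ DESeq2 gave 1, no filter 2 and all libraries 1. Between D6 and D4 progeny, no filter gave 1 against 0 in Sox1-FOXA2+, and DESeq2 and no filter gave 1 against 0 in Sox1+FOXA2+. For progeny against sorted, all libraries gave 1 against 3 at D4, and at D6 DESeq2 gave 4 and the block 1 against 2. The D6 interaction gave 2 with DESeq2 against 0. The replicate block changed no other call in comparisons where every r was over 0.1. Where not every r was, the block ended the calls of Sfrp2 at D4 (adjusted p = 0.0641) and Lef1 at D6 (0.0824) for progeny against sorted, and of Sp5 (0.074) and Dkk1 (0.0985) for Sox1-FOXA2+ against Sox1+FOXA2- in D6 progeny.

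Leaving out each library in turn gave 2 to 5 called genes for Sox1-FOXA2+ against Sox1+FOXA2- in D6 progeny, 1 to 2 at D6 and 0 to 2 in D4 progeny. It gave 1 to 3 for Sox1+FOXA2+ against Sox1-FOXA2+ in D6 progeny and 0 to 1 in D4 progeny, sorted D4 and sorted D6 cells, and 0 to 2 for Sox1-FOXA2+ against Sox1-FOXA2- at D6. It gave 1 to 3 and 1 to 2 for progeny against sorted at D4 and D6, and 0 to 1 between D2 and D0 of Sox1-FOXA2-, between D6 and D2 of Sox1-FOXA2+ and of Sox1+FOXA2+, and between D6 and D4 progeny of Sox1+FOXA2+. The other comparisons stayed at 0. The share of all genes called with a library left out was not counted, so these counts cannot be set against one.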
